A study of Mus musculus with 68 samples.

Results

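The genes described here encode the protein subunits of the cytosolic ribosome, and they were followed in individual dopamine neurons from the ventral tegmental area (VTA) of WT and 3xTg mice. They were taken by symbol alone, as every gene named Rpl or Rps followed by a number (with a closing a, l or x allowed), together with Rplp0, Rplp1, Rplp2 and Rpsa. This gave 81 of the 36172 genes in the table. Of these, 32 belong to the small (40S) subunit, 46 to the large (60S) subunit and 3 to the stalk, the flexible arm of the large subunit that recruits translation factors. In all, 80 of the 81 had a count in at least 1 cell, and 76 were expressed, that is, reached a normalised count of 1 in no fewer than 80% of cells in either genotype, the limit the study set for an expressed gene.

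The RNA of each neuron was drawn into the recording pipette of a brain slice together with the nucleus (Patch-seq), captured by its poly(A) tail and amplified by 28 PCR cycles. The cells came from mice of 12 months, with 33 cells from 3xTg and 35 from WT mice. 3xTg mice are homozygous for 3 human transgenes, mutant amyloid precursor protein (APPSwe), tau P301L and presenilin 1 M146V, and WT mice were a separately bred control line on the same type of hybrid background, with both sexes used in both genotypes. The labels do not say which mouse a cell came from, so each genotype counts as 1 sample, and differences between genotypes are given as values with no test. The number in each cell's label falls into runs that alternate between the genotypes, namely WT 1 to 22 (17 cells), 3xTg 24 to 55 (21 cells), WT 57 to 74 (15 cells), 3xTg 76 to 92 (12 cells) and WT 94 to 96 (3 cells). What these numbers mark is not stated, so the main comparisons are also given for the first pair of runs (3xTg 24 to 55 against WT 1 to 22) and the second pair (3xTg 76 to 92 against WT 57 to 74).

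Ribosomal protein mRNAs are among the most abundant in most cells, because each ribosome carries a copy of nearly every ribosomal protein. Most of them begin with a cytosine followed by a run of pyrimidines, the 5′ terminal oligopyrimidine (TOP) tract, through which mTORC1 and the RNA-binding protein Larp1 control their translation as a group. Mammalian genomes also hold many processed pseudogenes of these genes, copies without introns that can share sequencing reads with their source.

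To show the shared start of these mRNAs, 30 bases around the annotated start are given for 10 members, 5 of which had a lower and 5 a higher summed level in 3xTg cells. The windows come from RefSeq promoters of build GRCm38.p6, which held 60 of the 81 members. Each runs 5′ to 3′ on the strand of the gene, with 10 bases before the start and 20 from the start base on, and capitals mark a C followed by at least 4 bases that are C or T, at the annotated start or, where there is none, the first within 10 bases of it, so that further tracts can stand in lower case.
Rplp0, chr5:115559457-115559486, plus strand: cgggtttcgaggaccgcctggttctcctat
Rps15, chr10:80292421-80292450, plus strand: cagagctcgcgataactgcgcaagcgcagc
Rpl11, chr4:136053374-136053403, minus strand: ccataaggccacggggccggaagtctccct
Rpl27a, chr7:109519185-109519214, plus strand: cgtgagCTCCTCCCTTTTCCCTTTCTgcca
Rps27, chr3:90213629-90213658, minus strand: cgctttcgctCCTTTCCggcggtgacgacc
Rpl12, chr2:32961702-32961731, plus strand: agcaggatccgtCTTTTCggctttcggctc
Rpl28, chr7:4792955-4792984, plus strand: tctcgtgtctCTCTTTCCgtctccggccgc
Rpl7a, chr2:26910797-26910826, plus strand: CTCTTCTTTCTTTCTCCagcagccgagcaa
Rps26, chr10:128626487-128626516, minus strand: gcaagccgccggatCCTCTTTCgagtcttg
Rplp2, chr7:141447641-141447670, plus strand: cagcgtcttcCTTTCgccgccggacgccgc
The tract was searched on the gene's own strand only. It began exactly at the annotated start in 13 of the 60 members (21.7%), against 3.01% of 27025 genes with a promoter in the same set. Within 10 bases of the start it was found in 38 of 60 members (63.3%), against 34.4% of all genes. Of the 10 windows shown, those of Rplp0, Rps15 and Rpl11 held no such tract that began within 10 bases of the start, and a start annotated a few bases off would shift it in or out of the window.

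Totals ranged from 492505 to 1678624 counts per cell, and the number of genes with a count ranged from 3695 to 10426. The 4 dopamine neuron markers (Th, Slc6a3, Slc18a2 and Ddc) together made up 0.464% to 3.33% of the counts of a cell. The study kept cells positive for the first 3 of these, so their presence was set by that choice. The sum does not show that each marker was found in each cell. The study also asked for cells negative for Pvalb, Tmem119, P2ry12 and Aldh1l1, and 58 of the 68 cells had no count of these. Markers of other cell types were low. Summed over the cells of a genotype, astrocyte markers took 0.0265% of counts in 3xTg and 0.0419% in WT, microglial markers 0.0314% and 0.0722%, and oligodendrocyte markers 0.00988% and 0.0302%. Endothelial markers took 0.00167% and 0.000162%, GABA neuron markers 0.0029% and 0.00456%, and glutamate neuron markers 0.0015% and 0.00435%. By their sums the glial markers were lower in 3xTg, but the median microglial share per cell was 0.0148% in 3xTg and 0.0149% in WT, and the highest, 0.805%, was that of a 3xTg cell. The dopamine neuron markers summed to 1.93% of counts in 3xTg and 1.52% in WT, with 2.24% and 1.55% in the second pair of runs. The part of these markers in the results was not tested.

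Ribosomal protein genes took close to equal shares of the counts in the 2 genotypes. Summed over cells, they held 704872 of the 3xTg counts, or 1.92%, and 656201 of the WT counts, or 1.93%. Exact Poisson intervals at 95% were 703215 to 706507 and 654591 to 657768 counts, and these, like all intervals here, cover counting error only. In single cells the median share was 1.83% for 3xTg (lowest 0.666%, highest 4.94%) and 1.81% for WT (lowest 0.608%, highest 4.52%). The spread over the cells of a genotype (SD 0.752 percentage points in 3xTg and 0.899 in WT) was far larger than the gap between the genotypes, and the ranges overlapped almost completely. On the log2 scale the ratio of the summed shares, 3xTg over WT, was -0.0034 for the 40S genes and 0.006 for the 60S genes, and it was -0.23 for the 3 stalk genes. Without WT cell 7 the value for the stalk genes was 0.014.

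**Figure D1:**
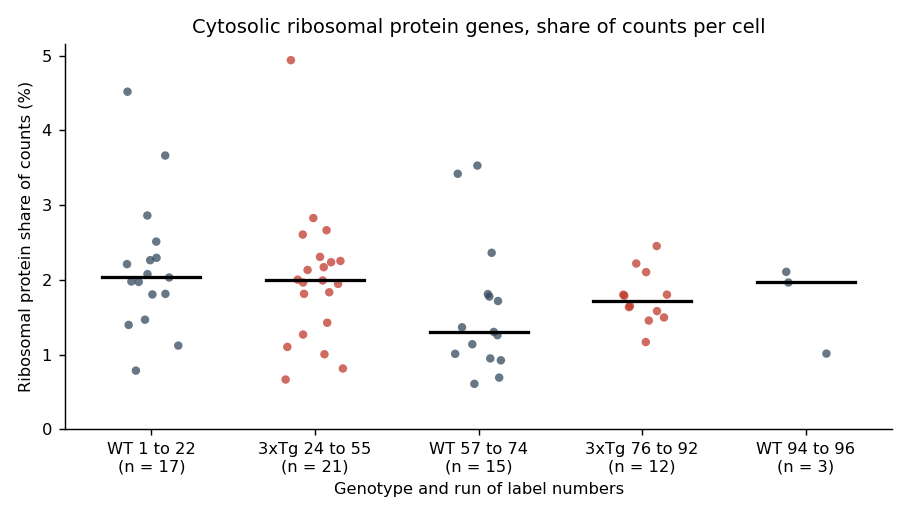
Share of all counts held by the 81 ribosomal protein genes in each cell (y axis, percent), by genotype and run of label numbers (x axis); each point is a cell and the black bar is the median of the run. Every run spans a wide range, and the lowest median (1.3%) is that of the WT cells numbered 57 to 74.

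By run, the median share was lower in the second run than in the first run of each genotype. The median was 2.03% for WT 1 to 22 and 1.99% for 3xTg 24 to 55, a gap well within the spread over cells. In the second pair it was 1.3% for WT 57 to 74 and 1.72% for 3xTg 76 to 92. The 3 WT cells numbered 94 to 96 had a median of 1.96%. Within WT, the median log2 ratio of the second over the first run was -0.36 across the 76 expressed members, and within 3xTg it was -0.21.

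A small number of cells were rich in these transcripts. WT cell 7 had a share of 4.52% and 3xTg cell 43 had 4.94%, and WT cells 11, 72 and 73 followed with 3.66%, 3.53% and 3.42%. WT cell 7 held the highest WT count for 24 of the 76 expressed members and 3xTg cell 43 the highest 3xTg count for 17 of them. The same few cells therefore weigh in the summed level of many members at once.

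The 2 subunits moved together from cell to cell. Over the 68 cells, the share of the 40S genes and that of the 60S genes had a Pearson r of 0.91 and a Spearman rho of 0.92, and r was 0.87 without the 2 cells farthest from the median. The ratio of 40S counts to those of the 60S and stalk genes together had a median of 0.508 over the 3xTg cells (lowest 0.424, highest 0.727) and of 0.489 over the WT cells (lowest 0.333, highest 0.861). Both shares are parts of the same library total, so this describes the libraries and carries no p. Pairs of single members followed each other less closely. The median r of log2 levels between 2 members was 0.35, with 90% of the values between 0.052 and 0.67, against 0.044 between a member and another expressed gene and 0.081 between any 2 expressed genes. The closest pairs were Rpl41 with Rps29 (r = 0.87) and Rps19 with Rpl37 (r = 0.86), and the lowest value was -0.25, for Rpl7a with Rps18.

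The ribosomal protein share was lower in cells with a high share of Malat1, a long noncoding RNA kept in the nucleus. The Malat1 share ranged from 0.00197% to 5.62% in 3xTg cells and from 0.00173% to 8.12% in WT cells. Over the 68 cells the 2 shares had r = -0.55 and rho = -0.67, and r was -0.53 without the 2 farthest cells. The relation had the same sign in each of the 4 larger runs, with r between -0.47 and -0.85, and with Malat1 taken out of the total it was -0.53 over all cells. The share was also lower where more genes were detected (r = -0.59 over all cells), and its r with the share of the dopamine neuron markers was -0.033. With the total count r was 0.16 over all cells, but 0.49 in WT 57 to 74 and 0.52 in 3xTg 76 to 92. Summed over cells, Malat1 had a log2 ratio of -0.75, 3xTg over WT, with -0.05 in the first pair of runs and -1.23 in the second. Malat1 thus moved with the genotype in the second pair, where the ribosomal protein share was also higher in 3xTg, and its part in that result was not tested.

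**Figure D2:**
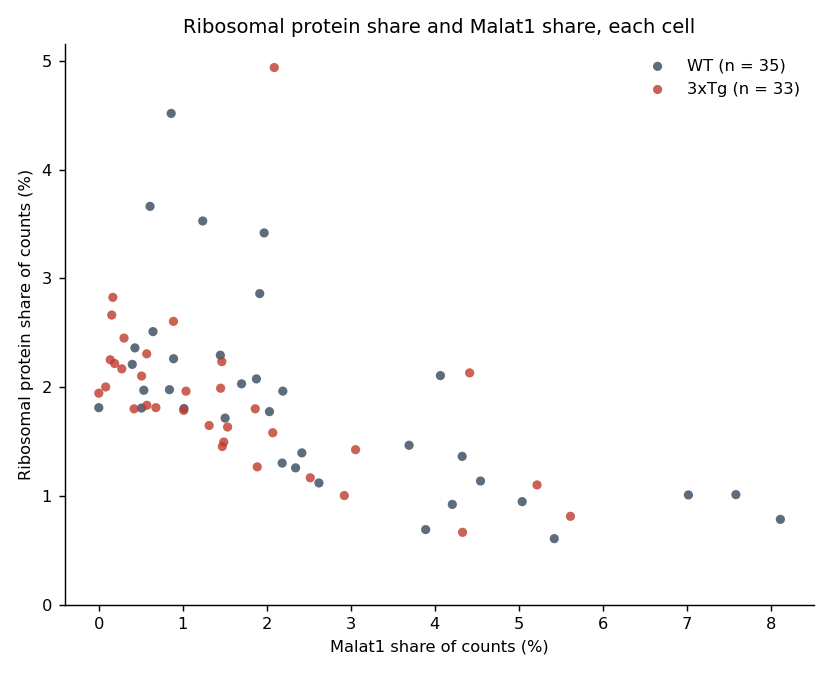
Ribosomal protein share of counts (y axis, percent) against Malat1 share of counts (x axis, percent), each point a cell (33 3xTg, 35 WT). Cells of both genotypes lie along the same falling band, and the highest Malat1 share, 8.12%, is that of a WT cell.

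Gene by gene, the median log2 ratio of the summed CPM (counts scaled to a total of 1000000), 3xTg over WT, was 0.02 over the 76 expressed members, against -0.028 over the 3988 expressed genes. The values of members ran from -0.77 for Rplp0 to 0.64 for Rpl12, whereas those of all expressed genes ran from -4.31 to 2.18. Beyond a log2 ratio of 0.32 in either direction, the fold threshold of the study, 9 of 76 members (11.8%) were higher in 3xTg, against 23.3% of all expressed genes, and 7 (9.21%) were lower, against 27.7%. The study set this threshold for genes that had first passed a t-test over cells. Here it is applied to ratios of sums, without a test, so the calls are not those of the study. Over all cells, members passed this limit less often than expressed genes at large in both directions, a difference that was not tested. In the first pair of runs, by contrast, 19 of 76 were lower, or 25%, against 21.9% of the genes expressed there. Members' summed counts were also large (median 7822 counts per member in 3xTg and 7487 in WT). Of the 76, 5 met the limit for expression only through the 3xTg cells (among them Rpl12, Rps10, Rps12 and Rps27l; 6.58%, against 27% of expressed genes) and none only through WT cells (against 4.11%). Among the 71 that met it in both genotypes, 7 were higher and 6 lower, against 15.5% and 32.6% of 2748 genes.

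**Figure D3:**
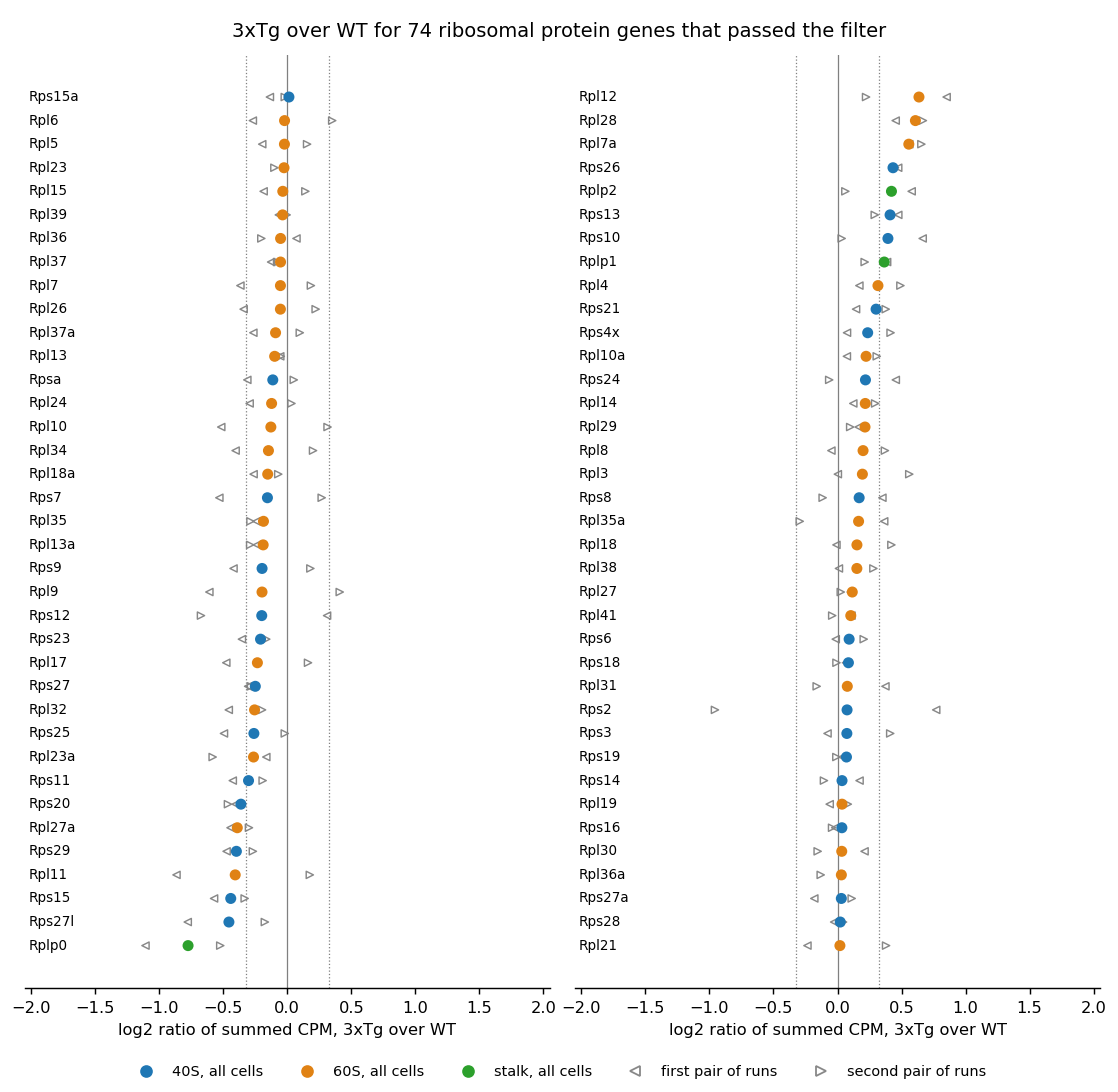
Log2 ratio of summed CPM, 3xTg over WT (x axis), for 74 of the 76 expressed ribosomal protein genes, ordered by value (rows, lower part of the order in the left panel); filled circles are all cells, coloured by subunit, open triangles the first and the second pair of runs, and dotted lines the fold threshold (a log2 ratio of 0.32 up or down). Most circles lie between the dotted lines, from Rplp0 at -0.77 to Rpl12 at 0.64, and for 36 of the 74 genes the triangles lie on opposite sides of 0.

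The 2 pairs of runs often disagreed. The sign of the log2 ratio was the same in both pairs for 39 of the 76 members and opposite for 37. Signs were not counted over all expressed genes, so this is not read as a trait of the members. Past the fold threshold in the same direction in both pairs were 4 members that were higher in 3xTg (among them Rpl7a, Rpl28 and Rps26; 5.26%, against 10.2% of expressed genes) and 3 that were lower (Rplp0, Rps15 and Rps20; 3.95%, against 10.2%). The gene that turned most visibly was Rps2, a 40S protein near the entry of the mRNA channel, chosen after its values were seen, with a log2 ratio of 0.77 in the first pair and -0.96 in the second.

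The mean over cells gave another picture than the sums. On the scale of log2(normalised count + 1), the difference 3xTg minus WT was above 0 for 71 of 76 members (93.4%), against 70.9% of expressed genes, and its median was 0.46 for members and 0.47 for expressed genes. The 2 medians stayed about as close under some other settings, such as CPM in place of size factors (0.35 and 0.36), but not under all. They were 0.44 for the 71 members and 0.22 for the 2748 genes that met the limit for expression in both genotypes, and 0.22 and 0.38 with the libraries thinned to 700000 counts (2 3xTg and 5 WT cells were shallower and dropped). This scale gives cells with a count near 0 a large weight, and the number of members with a count of at least 1 was 53 to 79 in 3xTg cells (median 77) and 55 to 78 in WT cells (median 74). In the thinned libraries, the median numbers were 77 and 76. By runs, the median difference of members was 0.041 in the first pair, against 0.39 for expressed genes, and 0.78 in the second pair, against 0.6. With size factors and the limit for expression taken from the second pair alone, the values there were 0.59 for members and 0.59 for expressed genes. Between the runs of 1 genotype, second minus first, it was -0.57 for members and 0.49 for expressed genes in WT, and 0.27 and 0.46 in 3xTg.

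Among the 40S genes, 4 were past the fold threshold higher in 3xTg and 4 were lower, of 31 expressed (12.9% each way, against 23.3% and 27.7% of all expressed genes). Rps26, which contacts the mRNA upstream of the start codon, ranged from 0 to 762 CPM (median 169) in 3xTg and from 0 to 437 CPM (median 129) in WT, giving a log2 ratio of 0.43 with 0.47 and 0.45 in the pairs. The groups overlapped, and the lowest log2 ratio on leaving out any cell was 0.34. Rps13 had a log2 ratio of 0.41, with 0.47 and 0.29 in the pairs. Rps10, which met the limit for expression through 3xTg cells alone, had 0.39, with 0.66 in the first pair and 0.032 in the second. Without 3xTg cell 26 they were 0.31 and 0.23, below the fold threshold, and Rps10 also dropped below it without 3xTg cell 24. By the mean over cells of log2(normalised count + 1), Rps10 had a difference of 1.66, and the paper lists it as higher in 3xTg.

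Of the 40S genes that were lower in 3xTg, Rps15 kept its place whichever cell was left out. Rps15, a protein of the head of the subunit near the decoding site, ranged from 0 to 310 CPM in 3xTg cells (median 157) and from 0 to 724 CPM in WT cells (median 188). Its log2 ratio was -0.44, with -0.57 and -0.33 in the pairs, and 24.2% of the 3xTg cells lay above the WT median. Rps29, a small zinc-binding protein, ranged from 39.9 to 520 CPM (median 109) in 3xTg and from 15.8 to 610 CPM (median 113) in WT. Its log2 ratio of -0.40 (-0.47 and -0.27 in the pairs) rested on few cells, as it was -0.31 without WT cell 11 and also below the threshold without WT cell 73. Rps20, with -0.36 (-0.40 and -0.46 in the pairs), lost its call without any of 7 cells and was -0.21 without WT cell 72.

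Rpsa, known also as a precursor of the laminin receptor, varied widely and had no clear side. It ranged from 0 to 953 CPM (median 124) in 3xTg and from 0 to 1131 CPM (median 133) in WT, with a log2 ratio of -0.11. Rps4x, encoded on the X chromosome, had a summed level of 195 CPM in 3xTg and 166 in WT, and a log2 ratio of 0.24, which was 0.012 without 3xTg cell 24. Rps6, the target of the S6 kinases downstream of mTORC1, had a summed level of 575 CPM in 3xTg and 540 in WT, and a log2 ratio of 0.091.

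Among the 60S genes, 3 were past the fold threshold higher in 3xTg (7.14%, against 23.3% of all expressed genes) and 2 were lower (4.76%, against 27.7%), of 42 expressed. Rpl28 had a median of 166 CPM across 3xTg cells (lowest 0, highest 428) and of 90.04 CPM across WT cells (lowest 0, highest 254). In all, 81.8% of the 3xTg cells lay above the WT median. The log2 ratio was 0.61, with 0.45 and 0.67 in the pairs, and it stayed at or above 0.54 when any cell was left out. Rpl7a ranged from 0 to 856 CPM (median 176) in 3xTg and from 0 to 304 CPM (median 160) in WT. Its log2 ratio was 0.56, with 0.56 and 0.65 in the pairs, whereas the log2 ratio of the medians was 0.13, and 57.6% of the 3xTg cells lay above the WT median.

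Rpl12, which sits at the base of the stalk, had the highest ratio of the expressed members. It ranged from 0 to 505 CPM (median 73.2) in 3xTg and from 0 to 414 CPM (median 48.004) in WT, with a count in 30 of 33 and 27 of 35 cells. The log2 ratio was 0.64, with 0.85 in the first pair and 0.22 in the second, and it lay between 0.48 without 3xTg cell 42, which held 12.6% of the 3xTg sum, and 0.89 without WT cell 14, which held 18.6% of the WT sum. Its sums were 3578 counts in 3xTg (3462 to 3697) and 2134 in WT (2044 to 2227). Rpl12 met the limit for expression through 3xTg cells alone. By the mean over cells of log2(normalised count + 1), its difference was 1.52, and the paper lists it as higher in 3xTg.

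The 60S genes with the lowest ratios were Rpl11 and Rpl27a. Rpl11, which binds the 5S ribosomal RNA with Rpl5 and can also bind Mdm2, ranged from 3.9997 to 342 CPM (median 177) in 3xTg and from 1.43 to 732 CPM (median 182) in WT. Its log2 ratio was -0.41, but it was -0.87 in the first pair and 0.18 in the second, and -0.30 without WT cell 9. Rpl5, its partner, chosen for that role, had -0.022. Rpl27a ranged from 0 to 388 CPM (median 126) in 3xTg and from 0 to 644 CPM (median 142) in WT, with a log2 ratio of -0.39 (-0.44 and -0.30 in the pairs), and it was -0.26 without WT cell 72. It also lost its call without WT cell 94.

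The 3 stalk genes did not go the same way. Rplp0, the scaffold on which the other stalk proteins are mounted, had a median of 282 CPM across 3xTg cells (lowest 0, highest 1238) and of 214 CPM across WT cells (lowest 0, highest 3730). By its sum it had the lowest ratio of the expressed members, with a log2 ratio of -0.77 (-1.11 and -0.52 in the pairs), whereas by the medians it was higher in 3xTg, with 0.40. The sums were 11091 counts in 3xTg (10886 to 11299) and 17592 in WT (17333 to 17854). WT cell 7 held 24.2% of the WT sum, and without it the log2 ratio was -0.42. Rplp1 ranged from 52.6 to 1574 CPM (median 240) in 3xTg and from 0 to 583 CPM (median 154) in WT. Its log2 ratio was 0.36 (0.39 and 0.21 in the pairs), with 84.8% of 3xTg cells above the WT median, and it was 0.22 without 3xTg cell 43. Rplp2 ranged from 0 to 1223 CPM (median 108) in 3xTg and from 0 to 237 CPM (median 83.2) in WT, with a log2 ratio of 0.42, which was 0.58 in the first pair, 0.061 in the second and 0.17 without 3xTg cell 43. Rplp1 and Rplp2, the acidic proteins that form pairs on the scaffold, were thus higher in the sums and in the medians over all cells, though not past the fold threshold in the second pair, while Rplp0 turned with the measure.

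Levels per length differed far more between members than between genotypes. The authors had removed duplicate reads, and the part of this step in the levels was not tested. Per kilobase of coding sequence, the level of the expressed members over all cells ranged from 99.5 CPM for Rps12 to 5077 CPM for Rpl41, with a median of 464 CPM. Rpl41, whose coding sequence of 75 bases is the shortest of the set, stood apart on this scale, to which reads from the untranslated parts of the mRNA also count. After Rpl41 came Rps27 with 1176 CPM per kilobase, Rpl35 with 1078, Rpl13 with 911 and Rps14 with 842. The lowest after Rps12 were Rps27l with 141, Rpl12 with 163 and Rps10 with 165. The order changed per kilobase of the whole annotated transcript, where Rpl41 had 654 CPM, below Rps27 with 859 and Rpl13 with 739. At the low end of that scale were Rps15a with 21.4 CPM and Rps20 with 26.2, whose annotated transcripts are long (5179 and 3706 bases), while Rps12 had 67.5.

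**Figure D4:**
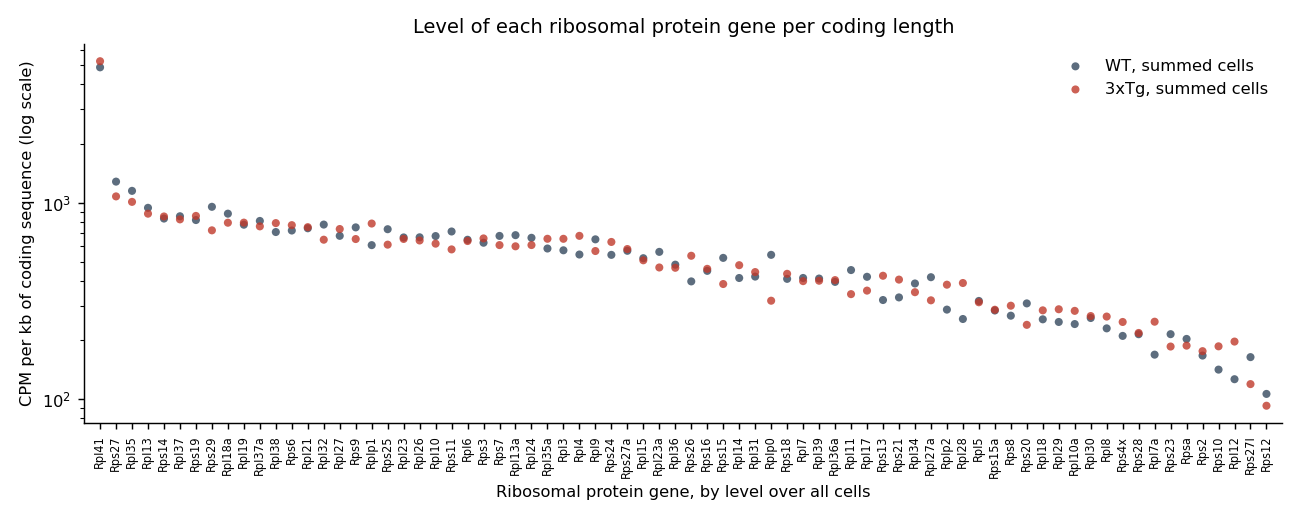
Summed CPM per kilobase of coding sequence (y axis, log scale) of 74 of the 76 expressed ribosomal protein genes, ordered by their level over all cells (x axis), with 1 point for each genotype. Rpl41 stands above the others, with 5077 CPM per kilobase over all cells, and the points of the genotypes lie close together along the whole order.

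Members also differed in how evenly they were found. A count of at least 1 in every one of the 68 cells was seen for 15 of the 76 expressed members. Over the whole series, 787 genes had a count above 0 in every cell, beside 3988 expressed genes, so members did not stand out in this. The SD over cells within a genotype, on the scale of log2(normalised count + 1), was smallest for Rpl6 (1.15), Rpl41 (1.23), Rpl37a (1.27) and Rps29 (1.35). It was largest for Rpl14 (2.86), Rps4x (2.83), Rpsa (2.71) and Rps10 (2.71), with a median of 2.01 over the expressed members. Rpl6 ranged from 133 to 1134 CPM in 3xTg cells and from 89.4 to 1562 CPM in WT cells, while Rpl14 ranged from 0 to 1091 CPM in 3xTg and from 0 to 839 CPM in WT, with a count in 30 of 33 and 31 of 35 cells.

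Many counts of these genes were not whole numbers, as can arise when a read is divided among several places in a reference, although how the software made them is not given in the sources used here. This held for 93.6% of the counts above 0 of members and for 54.95% of those of the other genes. Over expressed genes the median share per gene was 96.8% for members and 74.6% for all. For 14 expressed members, among them Rpl3, Rpl6, Rpl19, Rpl13a and Rps14, every count above 0 was fractional. Of 258 pseudogene symbols of this family in the table, 5 had a count in any cell, and together these took 0.00943% of 3xTg and 0.00904% of WT counts. How far a member's level holds reads shared with such copies was not tested. The 5 included Rps15a-ps4, with 37.4 CPM in 3xTg and 19.9 CPM in WT (log2 ratio 0.91), and Rps15a-ps6, with 7.53 and 27.4 CPM (log2 ratio -1.86). Their source gene Rps15a had a summed level of 111 CPM in 3xTg and 110 in WT.

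The 5 members that missed the limit for expression were Rps3a, Rpl22 and the paralogs Rpl3l, Rpl10l and Rpl39l, second copies of ribosomal protein genes that are known for use in particular tissues. Rps3a, a 40S protein, was listed at 0 in every cell, and so was each of its pseudogene symbols, which is not read here as absence of the transcript. Rpl3l, the paralog of Rpl3 known from muscle, had a count in 5 of 33 3xTg cells and 2 of 35 WT cells, with summed counts of 485 (95% interval 443 to 530) and 8 (3.45 to 15.8). Of these sums, 53.2% came from 3xTg cell 26 and 74.8% from WT cell 74, and without them 227 and 2 counts remained. Rpl10l, known from testis, had a count in 5 cells of each genotype, with sums of 16 (9.15 to 26), of which 9 came from 3xTg cell 78, and 11 (5.49 to 19.7). Rpl39l, also known from testis, had a count in 15 of 33 3xTg cells and 8 of 35 WT cells, with sums of 110 (90.4 to 133) and 34 (23.5 to 47.5), and 73.3% of the WT sum came from 1 cell. Over all cells and per kilobase of coding sequence, Rpl3l had 5.71 CPM against 616 CPM for Rpl3, Rpl10l had 0.595 against 648 for Rpl10, and Rpl39l had 13.4 against 407 for Rpl39. The partner genes had log2 ratios of 0.19 (Rpl3), -0.13 (Rpl10) and -0.037 (Rpl39).

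The coding sequences of Rpl39 and Rpl39l are given because it holds the longest identical stretch among the pairs compared. Both are 153 bases, taken from GENCODE M21 transcripts, 5′ to 3′ without the stop codon, and capitals mark the 23 positions at which they differ (84.97% identity).
Rpl39: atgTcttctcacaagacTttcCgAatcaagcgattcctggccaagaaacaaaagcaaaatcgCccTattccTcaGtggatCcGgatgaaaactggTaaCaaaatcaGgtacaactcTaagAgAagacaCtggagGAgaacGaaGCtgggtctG
Rpl39l: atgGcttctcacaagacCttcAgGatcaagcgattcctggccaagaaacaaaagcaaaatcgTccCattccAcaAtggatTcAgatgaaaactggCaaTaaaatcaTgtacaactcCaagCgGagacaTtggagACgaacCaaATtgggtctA
That stretch was 38 bases long. The authors' alignment asked for at least 90% identity with the reference, which the 2 coding sequences as a whole do not reach with each other, though shorter stretches do.

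Rps27 and Rps27l are shown as the only paralog pair within the symbol rule of which both genes were expressed. Both coding sequences are 252 bases and differ at 60 positions, in capitals here, with 76.2% identity and no identical stretch longer than 11 bases.
Rps27: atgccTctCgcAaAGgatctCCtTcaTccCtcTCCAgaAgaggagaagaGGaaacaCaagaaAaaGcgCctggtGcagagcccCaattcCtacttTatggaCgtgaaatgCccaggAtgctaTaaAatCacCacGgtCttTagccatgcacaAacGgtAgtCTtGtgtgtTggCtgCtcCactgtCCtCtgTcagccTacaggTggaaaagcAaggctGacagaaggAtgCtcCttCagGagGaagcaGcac
Rps27l: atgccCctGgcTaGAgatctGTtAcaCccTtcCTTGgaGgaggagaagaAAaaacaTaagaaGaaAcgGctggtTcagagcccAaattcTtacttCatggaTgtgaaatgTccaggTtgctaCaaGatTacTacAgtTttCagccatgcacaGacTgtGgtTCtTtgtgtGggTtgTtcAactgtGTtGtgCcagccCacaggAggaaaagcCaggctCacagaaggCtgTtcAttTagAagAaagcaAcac
Rps27 ranged from 0 to 1271 CPM (median 254) in 3xTg and from 11.8 to 1690 CPM (median 227) in WT, with a log2 ratio of -0.25. Rps27l, known as a target of p53, ranged from 0 to 111 CPM (median 28.8) in 3xTg and from 0 to 329 CPM (median 30.3) in WT. Its log2 ratio was -0.46, and -0.12 without WT cell 6, which held 22.8% of the WT sum.

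The other 3 paralog pairs lie partly outside the symbol rule. Rpl22l1 had a summed level of 169 CPM in 3xTg and 162 in WT (log2 ratio 0.065), whereas Rpl22 itself had 34.3 and 46.8 CPM, with a count in 25 of 33 and 21 of 35 cells. Rpl22 thus missed the limit for expression while its paralog met it. Rpl7l1 had 122 and 150 CPM (log2 ratio -0.30) beside 324 and 336 CPM for Rpl7 (-0.054). Rpl36al had 144 and 129 CPM (0.16) beside 129 and 126 CPM for Rpl36a (0.03), and these 2 genes share 87.7% of their coding sequence.

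Genes that work with the ribosome had a median close to 0 over all cells, but not in each pair of runs. Of 14 partners and elongation factors in the table, 12 were expressed, with a median log2 ratio of -0.0014 over all cells, -0.21 in the first pair and 0.24 in the second. Past the fold threshold, 2 were higher in 3xTg (16.7%, against 23.3% of all expressed genes) and 1 was lower (8.33%, against 27.7%). Their share of counts had an r of 0.90 with that of the ribosomal protein genes over the 68 cells, both being parts of the same totals. Eef1a1, the factor that brings aminoacyl-tRNA to the ribosome, stood at 1815 CPM (3xTg) and 1828 CPM (WT). Fau, which encodes a ribosomal protein fused to a ubiquitin-like protein, had a log2 ratio of -0.073. Serbp1, which binds idle ribosomes, was at 0.75 with 1.17 and -0.22 in the pairs, Eef1b2 was at 0.33, and Pabpc1, the poly(A)-binding protein, was at -0.33. Serbp1 and Pabpc1 met the limit for expression through 3xTg cells alone.

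Genes of ribosome production were less well covered. Of 20 assembly factors, 8 were expressed, 4 of them through 3xTg cells alone, with a median log2 ratio of 0.1. Of the 8, 1 was past the fold threshold, higher in 3xTg, against 23.3% of all expressed genes higher and 27.7% lower. This was Sbds (0.35), which helps to release Eif6 from new 60S subunits and met the limit for expression through 3xTg cells alone. Of 10 genes of RNA polymerase I, which makes ribosomal RNA, 4 were expressed. Past the fold threshold and higher in 3xTg were Polr1e (1.58), Ubtf (0.79) and Rrn3 (0.66), against 23.3% of all expressed genes. Polr1b (-0.39) was past it and lower, against 27.7%. Polr1e and Ubtf were past the fold threshold in both pairs of runs, as were 10.2% of all expressed genes in that direction. Polr1e met the limit for expression through 3xTg cells alone. Their medians were low, at 6.2 CPM in 3xTg and 2.98 CPM in WT for Polr1e and at 25.5 and 8.09 CPM for Ubtf. Of 12 genes of mTORC1 and TOP mRNA control, 3 were expressed, and Larp1 had a summed level of 69.5 CPM in 3xTg and 104 in WT (log2 ratio -0.58), though its median was 45.9 CPM in 3xTg and 16.2 CPM in WT, and it too met the limit through 3xTg cells alone.

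Mitochondrial ribosomal proteins build the separate ribosome of the mitochondrion. Of 73 in the table, 42 were expressed, with 13 (30.95%, against 23.3% of all expressed genes) past the fold threshold higher in 3xTg and 2 (4.76%, against 27.7%) lower. Their median log2 ratio was 0.11, with -0.05 in the first pair of runs and 0.28 in the second. Of the 42, 20 met the limit for expression through 3xTg cells alone (47.6%, against 27% of expressed genes) and 1 through WT cells alone. Their share of counts was 0.592% in 3xTg and 0.562% in WT, and it had an r of 0.24 with the share of the cytosolic set over the 68 cells.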

How the data were processed

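The authors used Strand NGS 4.0 to trim reads and to map them onto RefSeq transcripts of mm10 (identity of 90% or more, gaps of 5% or less). They then removed duplicate reads and deposited estimated counts per gene for each cell. Beside these the authors deposited log2 values normalized with DESeq2, used here as an alternative only. Build and tool names are also in the submitters' processing notes.

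From the estimated counts, CPM were summed over the cells of a genotype, and size factors (median of ratios, 787 genes) gave log2(normalised count + 1). Expressed genes reached a normalised count of 1 in no fewer than 80% of cells in either genotype. No test was made, as each genotype is 1 sample. Scripts (Python 3.11.15, edgeR 4.0.16 for TMM factors on rounded counts) were checked on simulated data. A count was called whole within 0.001. Depth differed between cells, and counting intervals cover counting error only. Coding lengths were found in GENCODE M21 for 80 members.

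Members named were the 6 highest and 6 lowest ratios, the 5 highest and 5 lowest levels per length, the 4 largest and 4 smallest SDs, 5 of 14 tied as most fractional, those that fail the filter, the stalk genes, Rpsa and paralog pairs. Other genes came from lists. Members and lists were chosen with earlier results of these data known. Alternatives changed the scaling, pseudocount, filter, fold, depth and cells. Values of a few of these genes are not reported here, though they enter the counts and medians.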

Additional observations from a re-analysis of the deposited data

How the results depend on the processing

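The median log2 ratio of members stayed close to 0 and took either sign. It was 0.071 with TMM scaling, 0.025 over all genes with a count, 0.065 with the mean of CPM over cells, 0.047 in the second pair of runs and -0.058 in the first. It was -0.054 in thinned cells, -0.011 without the cells with Pvalb, Tmem119, P2ry12 or Aldh1l1, -0.018 without WT cells 94 to 96 and -0.0046 without cells under 5000 genes; the last pair were chosen after seeing the data, as was asking for expression in both genotypes. The first pair of runs gave 14 members higher (18.4%, against 33.7% of genes) and 19 lower (25%, against 21.9%) past the fold threshold, the second 14 higher (against 29.1% of genes) and 6 lower (7.89%, against 39.1%), and a threshold of 1.5-fold gave 2 higher (2.63%, against 9.93% of genes) and 1 lower (1.32%, against 13.1%). Only 3 members had mostly whole counts, with 0.00167% of 3xTg and 0.000155% of WT counts, and none was expressed.

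Leaving out each cell in turn gave a median log2 ratio between -0.059 and 0.077, a median difference between 0.39 and 0.55, shares between 1.86% and 1.95% in 3xTg and between 1.84% and 1.96% in WT, 7 to 12 members higher and 5 to 10 lower. Of the 9 higher and 7 lower members, 5 and 2 stayed past the fold threshold whichever cell was left out. CPM in place of size factors moved the median difference of all expressed genes from 0.47 to 0.36, and that of members to 0.35. No paired analysis was possible because the genotypes are separately bred lines and the labels name no mouse. The causes of these shifts were not tested, and with 1 sample per genotype no spread between mice is known.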
